A study of Ovis aries with 6 samples.

Results

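The inner root sheath keratins were examined in skin from a fine wool breed of sheep, Super Merino (SM), and a coarse wool breed, Small Tail Han (STH). The genes were chosen by symbol alone, as the rows named KRT25 to KRT28 or KRT71 to KRT74. Of these 8 symbols, 6 were present among the 28394 genes listed, and all 6 had enough counts to be tested. They were the type I keratins KRT25, KRT27 and KRT28 and the type II keratins KRT71, KRT72 and KRT74. KRT26 and KRT73 were not found under those names. The RefSeq name table pairs the identifier 101110427 with KRT26, and this gene, listed as LOC101110427, is described beside the members without being counted among them.

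Skin was taken behind the shoulder blade of 3 SM and 3 STH sheep, and 1 polyA RNA library was sequenced from each sheep. The comparison asks which transcripts differ between their skins. The sample records give an age of 9 months for every sheep, whereas the study describes ewes of a younger age kept on the same farm under the same feed. The SM sheep carry the labels 128, 30034 and 30126, the STH sheep the labels XW3, XW5 and XW8, and the 3 values of a breed are given in this order throughout. No agent or allele is named for either breed, so that breed is the only recorded difference. Total counts lay between 28870583 and 44645091 per library. Each member had between 4161 and 257115 counts in each sheep, so that counting error was small beside the differences between animals.

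The inner root sheath is the rigid sleeve that surrounds the growing fibre in the follicle and is broken down before the fibre leaves the skin. It is made of the Henle layer, the Huxley layer and the sheath cuticle. Keratin filaments are built from pairs of a type I and a type II protein, and in this sheath they are embedded in trichohyalin and cross-linked by transglutaminases. From work in other mammals, KRT25, KRT27, KRT28 and KRT71 are known from all layers of the sheath, KRT74 from the Huxley layer, and KRT26, KRT72 and KRT73 from the sheath cuticle. Variants of KRT25, KRT71 and KRT74 are known for curled or sparse coats.

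The 3 type I members lie in 1 stretch of the minus strand of chromosome 11 of Oar_v4.0, the genome build of the files. KRT25 (identifier 443079) extends from 40470908 to 40478560, KRT27 (identifier 100141298) from 40502774 to 40508663, and KRT28 (identifier 443080) from 40515712 to 40524396. LOC101110427, the KRT26 gene of the name table, lies between KRT25 and KRT27 from 40489247 to 40495505. The 3 type II members lie on the plus strand of chromosome 3. KRT72 (identifier 101110219) extends from 133461957 to 133474393, KRT74 (identifier 101110490) from 133485549 to 133494262, and KRT71 (identifier 101112045) from 133502784 to 133510767. No other listed gene lies between these 3. LOC101109951, which the name table leaves without a symbol, is the next gene beyond KRT72, from 133442684 to 133454210. It falls outside the rule for named genes and was chosen after its values were seen.

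The 3 highest sheath keratins were among the most abundant transcripts of the skin, and the other 3 were lower. Levels of different genes were compared as RPKM, which is per kilobase of exon, over all 6 sheep. KRT71 had 2040 ± 428 RPKM (SD, n = 6), the 25th highest mean of all listed genes. KRT25 followed with 1881 ± 260.2 RPKM (SD, n = 6), ranked 32nd, and KRT27 with 1010.4 ± 215 (SD, n = 6), ranked 90th. KRT72 had 176 ± 33.5 RPKM (SD, n = 6), KRT28 157 ± 32.5 (SD, n = 6) and KRT74 38.9 ± 5.30 (SD, n = 6), with ranks of 284, 315 and 1271. KRT26 (LOC101110427) lay between KRT28 and KRT74, with 80.2 ± 31.1 RPKM (SD, n = 6).

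Not every step of this order was larger than the spread between sheep. KRT71 was above KRT25 in 5 of 6 sheep, at 0.955 to 1.28 times its RPKM, and KRT72 was above KRT28 in 3 of 6, at 0.912 to 1.69 times. These neighbours were therefore not separated. KRT25 was above KRT27 in all 6 sheep, at 1.65 to 2.22 times its RPKM. KRT27 was 4.58 to 8.57 times KRT72 in all 6 sheep, and KRT28 was above KRT74 in all 6, by up to 5.34 times.

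Within each keratin type a single gene held most of the signal. KRT71 made up between 89.6% and 92.4% of the summed RPKM of the type II members in every sheep. KRT72 gave 6.06% to 8.64% and KRT74 1.46% to 2.06%. Among the type I members KRT25 gave 59.3% to 65.2%, KRT27 28.9% to 36.3% and KRT28 3.69% to 6.93%.

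The summed type I RPKM were 2339, 2932 and 3189 in the 3 SM sheep, against 2879, 3304 and 3644 in the 3 STH animals. The summed type II RPKM were 1728, 2030.5 and 2332 in the 3 SM sheep, against 2064, 2294 and 3077 in the 3 STH animals. Among the members found, type I therefore exceeded type II in every sheep. Its summed RPKM was 1.35 to 1.44 times that of type II in SM and 1.18 to 1.44 times in STH sheep. SM sheep averaged 1.39 ± 0.0488 (SD, n = 3), against 1.34 ± 0.137 (SD, n = 3) in STH sheep, and the breeds overlapped. With KRT26 added to the type I sum, SM sheep averaged 1.42 ± 0.0507 (SD, n = 3), against 1.38 ± 0.128 (SD, n = 3) in STH sheep. KRT73 was not found and is missing from the type II sum, so that the balance of the whole sheath is not known. The lowest ratio was that of STH sheep XW8, which had the highest KRT71 of all sheep.

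**Figure D1:**
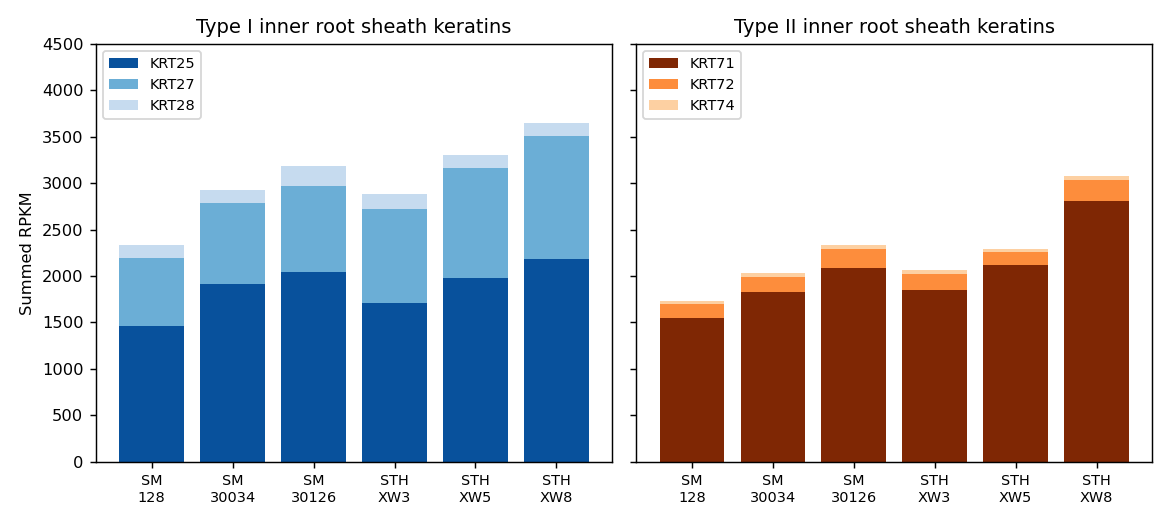
Stacked bars of the RPKM of the type I members (left) and type II members (right) in each of the 6 sheep, on the same axis. KRT25 and KRT27 fill most of the type I bars and KRT71 makes up at least 89.6% of each type II bar, and the highest bar of both panels is that of STH sheep XW8.

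The breeds were compared from the counts, as CPM after TMM normalization, by edgeR's quasi-likelihood test over 15320 genes with Benjamini-Hochberg adjustment. A gene was called where this adjusted p was below 0.05 and the levels differed by more than 1.5 times in either direction. Log2 fold changes set SM against STH, and negative values are lower in SM sheep. By this test 0 genes of all those tested were called (0.0%), although 2762 (18.0%) had an unadjusted p under 0.05. DESeq2 called 439 (2.87%) and edgeR's likelihood ratio test 352 (2.3%), and without SM sheep 128 the quasi-likelihood test called 1175. None of the 6 sheath keratins was called by any of these tests.

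Of the 6 members, 5 had a negative log2 fold change, against 48.6% of all genes tested, and KRT28 was the exception. The median was -0.19, with a range from -0.52 to 0.19, and over all genes the median was 0.02. An unadjusted p under 0.05 was reached by 1 of the 6 members, KRT27, against 10.8% of all genes in that direction. Non-overlapping sheep, with every SM sheep below every STH sheep, were found for the same gene, against 13.3% of all genes. In bulk skin, fewer sheath cells and less keratin RNA per cell cannot be told apart.

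KRT71 is the main type II keratin of the sheath. It had 4379, 4922 and 5683 CPM in the 3 SM sheep, against 5109.8, 6091 and 8013 in the 3 STH animals. STH sheep XW8 stood highest, and XW3 lay below SM sheep 30126, so that the breeds overlapped. SM sheep averaged 4995 ± 655 (SD, n = 3), against 6405 ± 1477 (SD, n = 3) in STH sheep, and the log2 fold change was -0.36 (standard error 0.20, 95% interval -0.82 to 0.11, adjusted p = 0.345 in edgeR's fit). Without XW8 it was -0.17, without XW3 -0.50 and without SM sheep 30126 -0.45.

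KRT72, a keratin of the sheath cuticle, had 439.8, 476 and 582 CPM in the 3 SM sheep, against 508, 424 and 689 in the 3 STH animals. The lowest and the highest value were both from STH sheep, XW5 and XW8. The log2 fold change was -0.11 (standard error 0.21, 95% interval -0.59 to 0.36, adjusted p = 0.763 in edgeR's fit), and it turned to 0.10 without XW8. It was -0.031 without SM sheep 128, -0.23 without 30126 and -0.26 without STH sheep XW5.

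KRT74, the keratin of the Huxley layer, was the lowest of the members and varied least, with a coefficient of variation of 13.5% over the 6 sheep. It had 138, 169.7 and 182 CPM in the 3 SM sheep, against 191, 167 and 207 in the 3 STH animals. STH sheep XW5 lay within the SM range. The log2 fold change was -0.21 (standard error 0.16, 95% interval -0.57 to 0.15, adjusted p = 0.461 in edgeR's fit). It was -0.10 without SM sheep 128, -0.13 without STH sheep XW8 and -0.14 with the exon length trend removed.

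KRT25 is the most abundant type I keratin of the sheath. It had 3520.3, 4407 and 4758 CPM in the 3 SM sheep, against 4039, 4855 and 5343 in the 3 STH animals. The breeds overlapped, with XW3 below SM sheep 30034 and 30126. SM sheep averaged 4228 ± 638 (SD, n = 3), against 4746 ± 659 (SD, n = 3) in STH sheep, and the log2 fold change was -0.17 (standard error 0.18, 95% interval -0.58 to 0.25, adjusted p = 0.602 in edgeR's fit). It was -0.051 without SM sheep 128, -0.074 without STH sheep XW8 and -0.27 without XW3.

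KRT27, the second type I keratin by level, had the largest log2 fold change of the 6 members. It had 1709.9, 1965 and 2075 CPM in the 3 SM sheep, against 2312, 2830.1 and 3127 in the 3 STH animals. All 3 SM sheep lay below all 3 STH sheep, for which an exact two-sided permutation test of 3 sheep against 3 gives p = 0.1, the smallest it can give. SM sheep averaged 1917 ± 188 (SD, n = 3), against 2756 ± 412 (SD, n = 3) in STH sheep, so that STH sheep had 1.44 times the SM level. The log2 fold change was -0.52 (standard error 0.17, 95% interval -0.91 to -0.14), with an unadjusted p of 0.014 and an adjusted p of 0.247 in edgeR's fit. Its p was the 852nd smallest of 15320. The adjusted p was 0.132 by the likelihood ratio test and 0.071 by DESeq2. As each sheep was left out, the log2 fold change lay between -0.64 and -0.42.

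KRT28, the type I keratin next to KRT27 in the genome, was the only member with a positive log2 fold change. It had 525, 475 and 757 CPM in the 3 SM sheep, against 555, 506 and 484 in the 3 STH animals. SM sheep 30126 stood above the other 5 sheep, which lay between 475 and 555 CPM. The log2 fold change was 0.19 (standard error 0.20, 95% interval -0.26 to 0.63, adjusted p = 0.587 in edgeR's fit), and without 30126 it was -0.028 and without 30034 0.30.

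**Figure D2:**
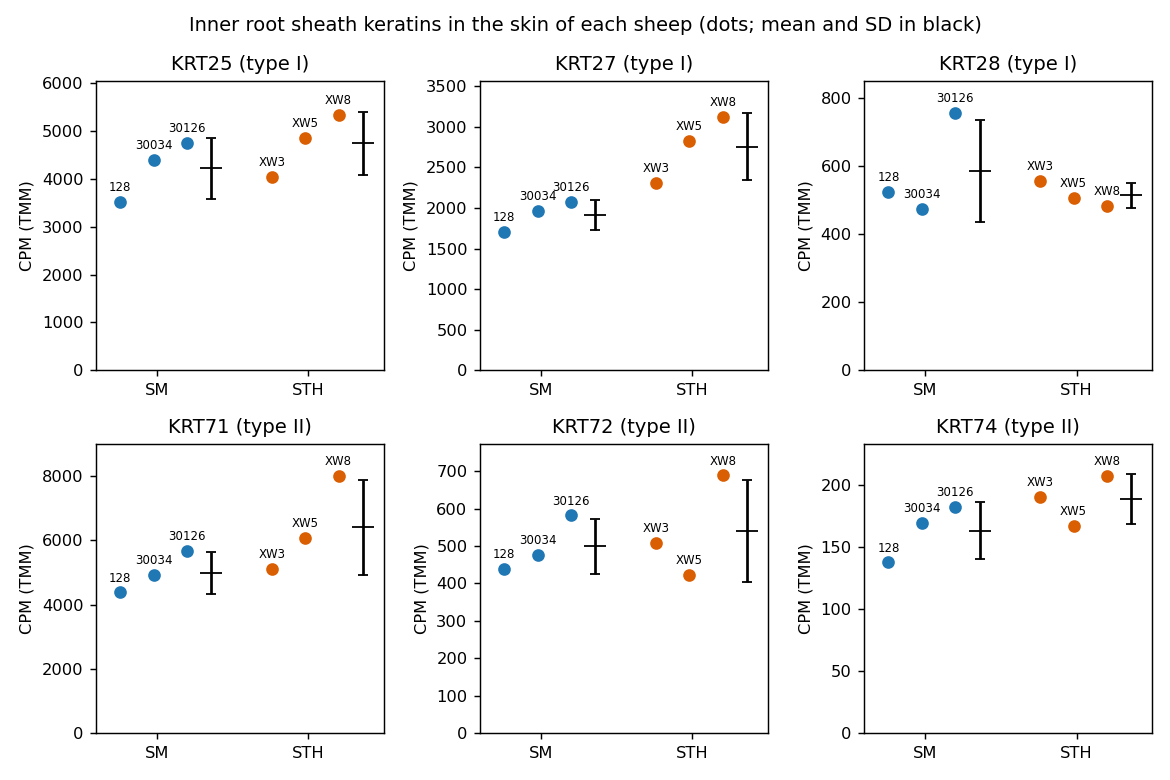
TMM-normalized CPM of the 6 members, 1 panel per gene and 1 dot per sheep, with the mean and SD of each breed (n = 3) in black and the vertical axes starting at 0. The breeds are separated for KRT27, between 2075 and 2312 CPM, and overlap for the other 5 genes.

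KRT26 is known from the sheath cuticle, and the gene listed as LOC101110427 had 154, 183 and 180.4 CPM in the 3 SM sheep, against 198, 169 and 383 in the 3 STH animals. STH sheep XW8 stood far above the other 5 sheep, and the breeds overlapped. The log2 fold change was -0.53 (standard error 0.29, 95% interval -1.18 to 0.12, adjusted p = 0.328 in edgeR's fit). Without XW8 it was -0.09, so that this value rested on 1 sheep. A gene on the opposite strand, LOC105610158, spans the whole of it, and whether the authors' counting used strand is not stated, so that reads of the pair may not be told apart. LOC101109951, the unnamed neighbour of KRT72, had 247, 324 and 386 CPM in the 3 SM sheep, against 283, 289 and 279 in the 3 STH animals. The breeds overlapped, and edgeR's log2 fold change of 0.17 (standard error 0.18) had an adjusted p of 0.580.

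**Figure D3:**
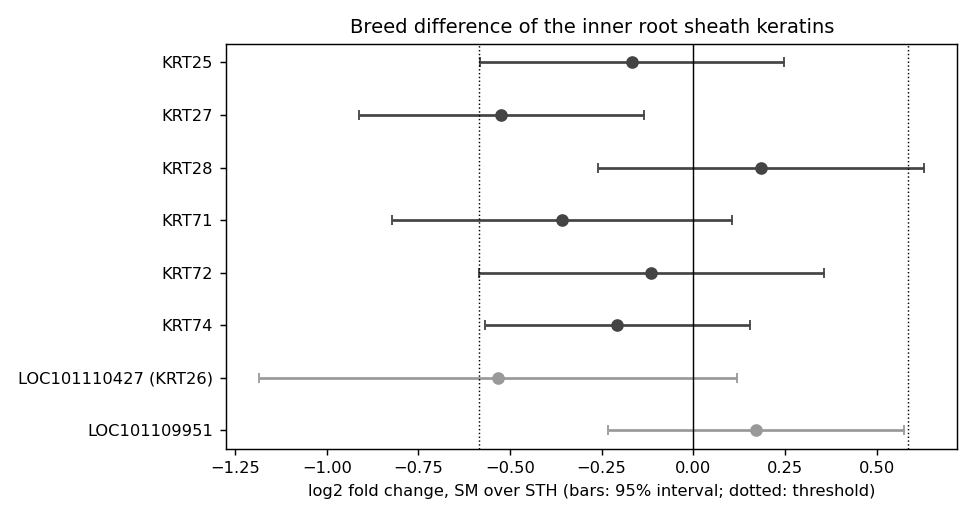
Log2 fold changes (SM over STH) with their 95% intervals from edgeR's quasi-likelihood test for the 6 members (dark) and for LOC101110427 and LOC101109951 (grey), with dotted lines at a difference of 1.5 times in either direction. The interval of KRT27, from -0.91 to -0.14, lies below 0, and those of the other 7 genes include 0.

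The members differed in level between animals. The highest sheep had between 1.51 times (KRT74) and 1.83 times (KRT71) the CPM of the lowest, and the coefficient of variation over the 6 sheep was between 13.5% and 23.2%. STH sheep XW8 had the highest value for 5 of the 6 members and SM sheep 128 the lowest for 4. Summed over the members, the CPM were 10712, 12414 and 14038 in the 3 SM sheep, against 12715, 14874 and 17863 in the 3 STH animals. The members made up between 1.119% and 1.126% (95% Wilson interval) of all counts in SM sheep 128 and 1.82% (95% Wilson interval 1.813 to 1.823) in STH sheep XW8, the lowest and highest shares of the 6 sheep. These intervals cover counting error only.

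The balance of KRT25 to KRT27 varied less within each breed than between them. The RPKM of KRT25 was 1.99, 2.17 and 2.22 times that of KRT27 in the 3 SM sheep, against 1.69, 1.66 and 1.65 times in the 3 STH animals. The breeds did not overlap. Of the type I sum, KRT27 held 30.1% ± 1.20 in SM (SD, n = 3) and 35.8% ± 0.618 in STH sheep (SD, n = 3). This pair of genes was singled out after its values were seen, so that no test was made. KRT27 was itself the member whose breeds did not overlap. For KRT71 over KRT25, the main pair of the sheath, the ratio was 0.955 to 1.06 in SM and 1.07 to 1.28 in STH sheep, which did not overlap but lay close. The same held for KRT27 over KRT28, at 4.18 to 6.31 in SM and 6.34 to 9.85 in STH sheep. The breeds overlapped for KRT71 over KRT72 and for KRT72 over KRT74. How often the ratios of other gene pairs do not overlap was not examined.

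Other genes of the sheath were examined as a list of partners, with 11 of 12 found under their symbols and 10 tested. Trichohyalin (TCHH) was not found under its symbol, and LPAR6, a lipid receptor, did not reach 10 counts in 3 sheep. No partner was called, 7 had a positive and 3 a negative log2 fold change, and the median was 0.19. An unadjusted p under 0.05 was reached by 2 genes with positive values (all genes, 7.21%) and 1 with a negative value (all genes, 10.8%). They were CUX1, at 0.56 on the log2 scale (standard error 0.19), DLX3, at 0.55 (standard error 0.21), both transcription factors, and PADI1, a peptidylarginine deiminase, at -0.78 (standard error 0.30). In these 3 genes the breeds did not overlap, against 12.3% of all genes with SM higher and 13.3% with SM lower. For PADI1 they lay close, at 63.5 CPM in SM sheep 30126 and 64.0 in STH sheep XW3. STH sheep XW8 stood far above the other sheep for this gene, at 143 CPM. GATA3, the transcription factor that specifies the sheath, had a mean of 96.5 ± 8.11 CPM in SM sheep (SD, n = 3). In STH sheep it had 86.3 ± 3.15 CPM (SD, n = 3), and the log2 fold change was 0.16 (standard error 0.13). GATA3, CUX1 and PADI1 were named here for their role or their p, outside the rule for named genes. Of the most abundant partners, CST6, a cysteine protease inhibitor, had -0.11 (standard error 0.18), CDSN, the adhesion protein corneodesmosin, -0.50 (standard error 0.27), and TGM3, a transglutaminase, 0.28 (standard error 0.26).

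The sheath keratins were set beside the keratins of the other compartments of the follicle and epidermis. Of 18 keratins of the wool fibre, 11 were found, 3 of them by their identifier in the name table. The median of their log2 fold changes was 0.54, 10 of the 11 were positive, and 3 had an unadjusted p under 0.05, all positive (all genes, 7.21%). Of the most abundant, KRT31 had a log2 value, SM over STH, of 0.55 (standard error 0.23), KRT83 of 0.66 (standard error 0.30), KRT33A of 0.47 (standard error 0.31) and KRT34 of 0.27 (standard error 0.30). These 4 are cortical keratins of the fibre, listed as V15, LOC100526780, K33 and KRT34.

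The keratins of the outer root sheath, companion layer and duct had a median log2 fold change of -0.18, close to that of the inner root sheath, with 7 of 11 found and 6 of the 7 negative. An unadjusted p under 0.05 was reached by 1 that was higher (all genes, 7.21%) and 2 that were lower in SM sheep (all genes, 10.8%). On the same log2 scale KRT5 had -0.38 (standard error 0.20) and KRT14, its basal cell partner, -0.51 (standard error 0.20). KRT17 had -0.18 (standard error 0.17) and KRT6A -0.77 (standard error 0.22). The 1 gene of the list with a positive value, KRT79, a duct keratin named here outside the rule, had 0.98 (standard error 0.18), without overlap of the breeds. KRT14 and KRT6A were found by identifier as LOC101118459 and LOC101112304. The study reports another gene, described as KRT6A-like, as lower in SM sheep, and that gene was not part of this list. The 6 epidermal keratins had a median of -0.44, and an unadjusted p under 0.05 was reached by 1 that was higher (all genes, 7.21%) and 3 that were lower in SM sheep (all genes, 10.8%). KRT10, the type I keratin of the suprabasal epidermis, which adjoins KRT28 in the genome, had -1.34 (standard error 0.29), and KRT1, its partner, -1.20 (standard error 0.35). KRT77 had -0.77 (standard error 0.31) and KRT80 0.40 (standard error 0.16). No gene of these lists was called by the quasi-likelihood test, and these differences between lists were not tested.

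**Figure D4:**
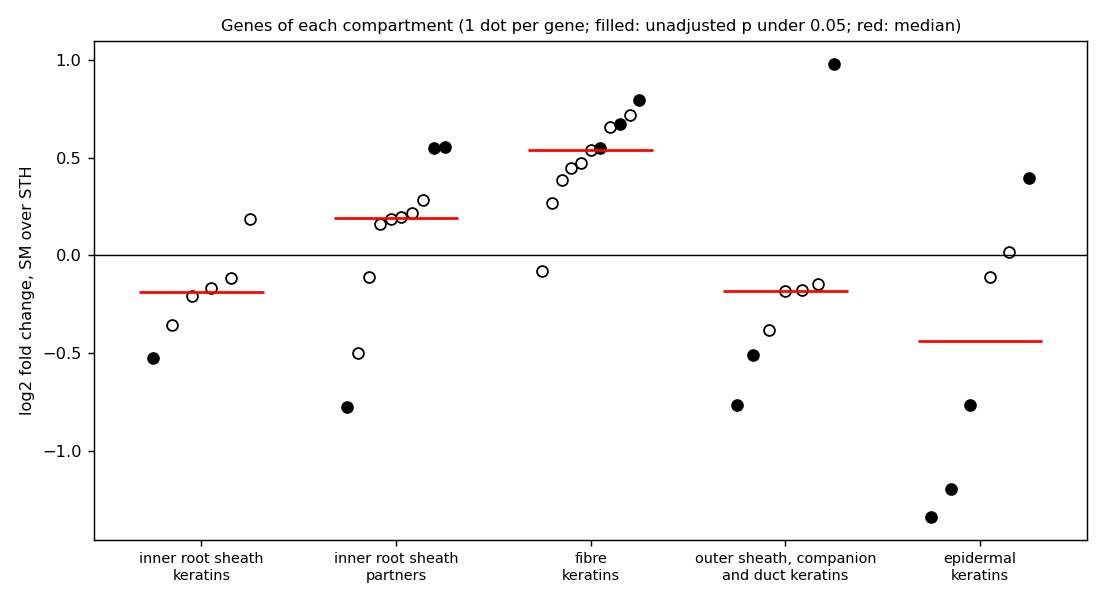
Log2 fold changes (SM over STH) from edgeR's quasi-likelihood test of the tested genes of 5 lists, 1 dot per gene, filled where the unadjusted p was under 0.05, with the median of each list as a red line. The medians were -0.19 for the inner root sheath keratins, 0.19 for the partners, 0.54 for the fibre keratins, -0.18 for the outer sheath list and -0.44 for the epidermal keratins.

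Within each sheep the summed sheath keratins were related to the summed fibre keratins as a ratio of CPM. This ratio was 0.659, 0.717 and 0.511 in the 3 SM sheep, against 0.686, 1.47 and 1.34 in the 3 STH animals. XW5 and XW8 stood above the other 4 sheep, and XW3 lay within the SM range, so that the breeds overlapped. The fibre keratins summed to between 16261 and 27480 CPM in SM and between 10098 and 18541 in STH sheep. Against the outer root sheath, companion layer and duct keratins, the ratio was 0.883 ± 0.0698 in SM (SD, n = 3) and 0.850 ± 0.0512 in STH sheep (SD, n = 3). Against the epidermal keratins it was between 6.88 and 9.00 in SM and between 3.60 and 6.67 in STH sheep, without overlap. STH sheep XW3, at 6.67, lay close to SM sheep 30034, at 6.88, and XW5 and XW8 stood apart, at 3.90 and 3.60.

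Summed markers of some other cell types lay apart between the breeds in the same libraries, whereas the summed sheath keratins overlapped. The 5 smooth muscle markers summed to between 1039 and 1249 CPM in SM and between 1653 and 2111 in STH sheep, with 4 of 5 at an unadjusted p under 0.05 and lower in SM sheep (all genes, 10.8%). The 5 adipocyte markers summed to between 30.8 and 65.8 CPM in SM and between 139 and 174 in STH sheep, but this difference was that of FABP4 alone, with a log2 value of -1.84 (SM over STH). Of the other adipocyte markers tested, PLIN1 had 0.14, CIDEC 0.40 and ADIPOQ -0.88, all with overlapping breeds, so that the list as a whole had no common direction. The 6 epidermal keratins summed to between 1515 and 1805 CPM in SM and between 1906 and 4964 in STH sheep. Of these genes only KRT10 had every SM sheep below every STH sheep. The breeds overlapped for KRT1, KRT2, KRT77 and KRT78, and KRT80 was higher in every SM sheep than in any STH sheep. The 5 endothelial markers summed to between 519 and 661 CPM in SM and between 329 and 542 in STH sheep, with 2 of 5 at an unadjusted p under 0.05 and higher in SM sheep (all genes, 7.21%), although these ranges overlapped. They also overlapped for the 5 dermal fibroblast markers (14386 to 20727 in SM, 16831 to 20748 in STH), the 5 immune markers (151 to 209.9 in SM, 148 to 177 in STH), the 5 melanocyte markers (4.71 to 6.25 in SM, 4.17 to 5.39 in STH) and the 5 skeletal muscle markers found of 6 (25.9 to 40.0 in SM, 35.3 to 42.8 in STH). No marker of these lists was at 0 counts in all sheep. The part of these differences in the values of KRT27 and the other sheath keratins was not tested.

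The genes whose pattern over the sheep was most like that of the sheath keratins were found by Pearson's r between the log2 CPM of each gene and the mean log2 CPM of the 6 members. That mean was 9.92, 10.08 and 10.33 in the 3 SM sheep, against 10.19, 10.23 and 10.50 in the 3 STH animals. Among 12912 genes with a mean log2 CPM of at least 1, an r over 0.95 was reached by 11. The 10 highest were CTSB, PFDN4, ANXA9, BPIFC, PAQR5, NSUN5, ATP2C2, ADIPOQ, MIIP and RNF185, with r between 0.95 and 0.99 over the 6 sheep. Spearman's rho with the same mean was 0.94 or 1.0 for each of them. CTSB encodes the lysosomal protease cathepsin B. ADIPOQ was close to the cut, with a mean log2 CPM of 1.05, and had only 0.198 CPM in SM sheep 128 and 0.841 in 30034. With so few sheep and so many genes this is a description only. KRT26 had an r of 0.80 and LOC101109951 of 0.36.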

How the data were processed

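Reads were mapped by the authors in CLC Genomics Workbench (advanced RNA-seq plugin) against Oar_v4.0, and the authors deposited 1 table per sheep, without pooling. The deposited total counts are whole numbers without normalization, and which reads were counted, and whether by strand, is not given in the sources used here. RPKM values deposited by the authors are per kilobase of exon and scaled to the fragments of each library. After scaling to each library, the ratio of counts to RPKM of each member was the same from sheep to sheep, to within 0.589%. The deposited TPM, RPKM rescaled to a common sum, served as an alternative. A deposited score named CPM, scaled to an effective library size, was not used.

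Groups were taken from the strain labels. The sheep are separate animals, and nothing pairs an SM with an STH sheep. Genes that reached 10 counts in 3 or more sheep were tested with edgeR 4.0.16 in R 4.3.3 (TMM, quasi-likelihood test, breed as the only term) over the whole table, with Benjamini-Hochberg adjustment. Standard errors are the log2 fold change divided by the square root of F, and 95% intervals use the moderated degrees of freedom. CPM are scaled to the TMM effective library size. A floor of 3 counts was 0.0664 to 0.0993 CPM and covers only counting error. Log2 CPM had a prior count of 2. The scripts were tested on simulated data.

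Alternatives were DESeq2 1.42.0, the likelihood ratio test, RLE, upper quartile and no scaling, other filters, removal of a loess trend (span 0.5) on exon length, limma 3.58.1 with a trend on log2(RPKM + 1), on which scale the change of low genes is understated, and fits without each of the sheep. The members, the gene lists and the tests were chosen with earlier results of these data known. All members are named. Of other lists, genes past both thresholds or, with none, at most 4 of the highest mean CPM were to be named, and of similar genes the 10 with the highest r. Genes named outside this rule are marked in the text. No protein or promoter sequence was used here.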

Additional observations from a re-analysis of the deposited data

Results flagged for a closer look

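LOC105610158, a gene on the plus strand of chromosome 11 (Oar_v4.0, 40483622 to 40495622) that spans the KRT26 gene LOC101110427 on the minus strand, had a total count of 0 in all 6 sheep but an RPKM above 0 in each. It is listed here because the signal appears in a column outside the comparisons. The RPKM were 4.24, 5.11 and 3.97 in the 3 SM sheep, against 4.16, 4.06 and 3.52 in the 3 STH animals. The breeds overlapped, and with no counts the gene was in no test.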

How the results depend on the processing

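No sheath keratin passed both thresholds under any of the 15 alternatives, and KRT25, KRT27, KRT71 and KRT74 kept their direction in all of them. Without single sheep the log2 fold change of KRT28 lay between -0.028 (without SM sheep 30126, the direction turned) and 0.30, and that of KRT72 between -0.26 and 0.10 (without STH sheep XW8, the direction turned). The median log2 fold change of the members lay between -0.27 and -0.07. The order of the members by level was the same with TPM and without each sheep. The count of genes called over the whole table moved from 0 to 352 with the likelihood ratio test, 439 with DESeq2, 2 without a filter and 8 with the exon length trend removed, and without single sheep it ranged from 0 to 1175, the latter without SM sheep 128. Of the outer root sheath, companion layer and duct keratins, 1 was called by the likelihood ratio test and 2 by DESeq2, and 0 to 1 without single sheep. Of the epidermal keratins, 2 were called by either test, and 0 to 1 without single sheep. The cause was not tested. No fibre keratin or partner was called under any alternative. No paired analysis was possible because the sheep are separate animals and nothing pairs an SM with an STH sheep. With 3 sheep a breed, the intervals of the members allow differences of up to 0.91 on the log2 scale.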
